A study of Mus musculus with 6 samples.

Results

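The 10 genes described here are Yap1, Wwtr1, Lats1, Lats2, Ccn1, Ccn2, Ankrd1, Amotl1, Amotl2 and Ajuba, members of the YAP pathway and genes that YAP switches on. They were chosen by name, with earlier results of these data known, as were the other gene lists below. All 10 were found among the 55414 gene identifiers of the deposited table. Transcripts were counted by RNA-seq in AY-mICC, a mouse line of intrahepatic cholangiocarcinoma cells, a tumour that arises in bile ducts within the liver. There were 3 libraries of cells with a Copa knockdown (shCopa) and 3 of control cells (shCon), all grown in DMEM with fetal bovine serum and antibiotics. Copa encodes a subunit of COPI, the coat of vesicles that carry proteins from the Golgi apparatus back to the endoplasmic reticulum. Every library came from this 1 line, and the labels give neither the alleles or transgenes that the line carries nor the number or sequence of the hairpins. Nor do they call the replicates separate cultures. The p-values therefore reflect only how far these samples scatter, a scatter that may be technical.

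The Hippo pathway restrains YAP (gene Yap1) and its relative TAZ (gene Wwtr1), coactivators that cannot bind DNA themselves. In the nucleus they join TEAD proteins, which do bind DNA, and raise transcription of genes for growth, matrix and the cytoskeleton. The kinases LATS1 and LATS2 phosphorylate YAP and TAZ, which keeps them in the cytoplasm or sends them to degradation, and the angiomotins and AJUBA tune this step. In the liver, YAP activity drives biliary fate and bile duct tumours. Transcript counts do not measure the phosphorylation, amount or place of these proteins.

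Promoters were looked at for the TEAD binding motif GGAATG, because YAP and TAZ reach their targets through TEAD factors. RefSeq promoters of build GRCm38.p6, running from 250 bases before to 50 after each transcription start, were matched by symbol for 9 of the 10 members, in 11 promoters; Ccn2 had no entry. GGAATG, on either strand, stood in 8 of these 11 promoters, from 7 genes, against 14.7% of all 32851 promoters in the table and 12.6% of those of tested genes. It began 103 bases before the start of Ccn1 and, with a copy of the motif at each place, 210 and 123 bases before the start of Ankrd1. Ajuba had it 186 and 164 bases before its start, and Amotl2 had it 65 bases before. It lay 141 bases before the start of Yap1 and 136 bases before the first listed start of Wwtr1, whose other listed promoter overlaps this one and holds the same copy. In Lats2 it began 4 bases after the first listed start, and the other Lats2 promoter, like those of Lats1 and Amotl1, did not hold these letters. No promoter of a member held TGANTCA, the motif of AP-1 factors that often act beside TEAD, against 7.81% of all promoters and 5.46% of those of tested genes. With only 11 promoters, none is near these shares. This motif was added after the first was counted. The promoters of the 2 effectors, and of a target that rose and a target that fell in the results that follow, are printed with GGAATG or its reverse complement CATTCC in capitals.

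Yap1, chr9:8004547-8004846, minus strand: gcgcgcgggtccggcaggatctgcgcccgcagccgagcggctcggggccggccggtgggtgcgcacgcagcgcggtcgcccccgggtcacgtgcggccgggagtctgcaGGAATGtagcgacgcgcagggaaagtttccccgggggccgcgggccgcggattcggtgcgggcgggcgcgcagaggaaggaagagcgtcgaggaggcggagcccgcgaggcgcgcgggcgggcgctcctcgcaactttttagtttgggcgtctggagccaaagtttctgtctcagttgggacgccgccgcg

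Wwtr1, chr3:57575861-57576160, minus strand: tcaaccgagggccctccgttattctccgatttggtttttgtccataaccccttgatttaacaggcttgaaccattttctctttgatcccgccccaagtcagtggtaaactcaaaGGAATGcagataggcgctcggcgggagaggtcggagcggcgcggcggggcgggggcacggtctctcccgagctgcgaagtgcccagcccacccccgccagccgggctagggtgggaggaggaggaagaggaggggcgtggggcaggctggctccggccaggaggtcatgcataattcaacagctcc

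Ccn1, chr3:145649936-145650235, minus strand: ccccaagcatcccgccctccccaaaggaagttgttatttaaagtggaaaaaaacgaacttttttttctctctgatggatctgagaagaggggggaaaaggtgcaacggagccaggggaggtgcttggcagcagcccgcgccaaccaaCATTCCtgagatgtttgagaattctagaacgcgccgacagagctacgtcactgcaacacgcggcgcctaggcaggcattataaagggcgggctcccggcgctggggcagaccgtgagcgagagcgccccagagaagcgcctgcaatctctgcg

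Ankrd1, chr19:36119795-36120094, minus strand: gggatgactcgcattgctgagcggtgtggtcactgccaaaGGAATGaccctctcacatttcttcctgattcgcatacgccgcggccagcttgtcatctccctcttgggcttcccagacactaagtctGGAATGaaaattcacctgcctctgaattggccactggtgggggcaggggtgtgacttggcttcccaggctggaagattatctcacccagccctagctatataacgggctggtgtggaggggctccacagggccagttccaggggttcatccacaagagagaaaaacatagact

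Library totals ran from 19634938 to 24546204 estimated counts, and the members held between 1617 counts (Lats2 in shCopa 3) and 26284 counts (Ccn2 in shCopa 2), so none was near the filter on low counts. Copa itself stood at 186, 182 and 187 CPM (counts scaled to library size) in shCopa and at 420, 517 and 527 CPM in shCon. One control library, shCon 1, stood apart: its log2 CPM correlated with shCon 2 and 3 at r = 0.973 and 0.972 across genes, against 0.9898 between shCon 2 and 3 and 0.989 to 0.991 among the shCopa libraries. It was low in long genes. Relative to the mean of shCon 2 and 3, shCon 1 departed by a median log2 difference of 0.38 in the 3697 tested genes with the shortest exon length and of -0.35 in the 3695 with the longest, which begin at 6576 bases. Values without shCon 1 are therefore given for the members where it lay farthest from the other controls, and for some genes of the other lists. Markers of bile duct epithelium summed to 4020 to 4237 CPM in shCopa and 5094 to 6089 CPM in shCon, although Epcam was below 1 CPM in every library. Of the 7 tested markers of this list, 0 rose and 4 fell by edgeR, where 18.2% of all tested genes rose and 18.4% fell. Summed T cell markers stayed below 0.2 CPM in every library, endothelial markers summed to 2.52 to 4.55 CPM in shCopa and 0.411 to 0.601 CPM in shCon, and hepatocyte markers to 23.0 to 24.2 CPM and 8.37 to 13.3 CPM. Of the endothelial list 2 markers were tested and both rose. Kdr had 26, 42 and 52 counts in shCopa, against 3, 1 and 1 counts in shCon (log2 fold change 4.58). Vwf, at 0.974 CPM or less, had a log2 fold change of 1.37. The hepatocyte sum was carried by Alb, which rose (log2 fold change 1.20), while Ttr, the only other tested marker of that list, did not pass (-0.40). Macrophage markers, carried by Csf1r and Cd68 with Tyrobp at 0 everywhere, summed to 102 to 106 CPM in shCopa and 155 to 194 CPM in shCon. Within this list Csf1r fell (log2 fold change -0.91), Cd68 did not pass (0.12), and Ptprc, the leukocyte antigen CD45, rose, with 21, 25 and 25 counts in shCopa, against 0, 1 and 1 counts in shCon (edgeR adjusted p = 0.000641). Fibroblast markers, carried by Dcn with Col1a1 at 3.14 CPM or less, summed to 169 to 183 CPM in shCopa and 184 to 223 CPM in shCon. Among them Pdgfrb, at 2.40 CPM or less, fell (log2 fold change -1.66), while Dcn (-0.25) and Col1a1 (0.93) did not pass. The part of these differences in the results that follow was not tested.

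Setting shCopa against shCon shows how these transcripts stand when Copa is lowered. Of the 10 members, 4 rose (Ccn1, Ccn2, Lats1 and Yap1), 4 fell (Wwtr1, Lats2, Ankrd1 and Ajuba) and 2 did not pass (Amotl1 and Amotl2). Transcripts of members with 1 role parted: Yap1 rose while Wwtr1 fell, and Lats1 rose while Lats2 fell. Among the classic targets Ccn1 and Ccn2 rose while Ankrd1 fell. The calls of Lats1 and Ajuba were lost without any 1 of the shCopa libraries. A change is called where edgeR's quasi-likelihood test gave a Benjamini-Hochberg adjusted p under 0.05 over all 14807 genes tested. By that rule 36.5% of all tested genes changed, 18.2% rising and 18.4% falling. Without shCon 1 the test called many more, 8439 of 15273 genes, and calls made without that library are to be read against this count. In 9 of the 10 members the shCopa and shCon libraries did not overlap, against 54% of all tested genes. The median log2 fold change was 0.21 over the members and -0.01 over all genes tested, and the members spanned -1.02 to 1.66. In bulk RNA, a change in the number of cells of a type and a change in RNA per cell cannot be told apart.

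**Figure D1:**
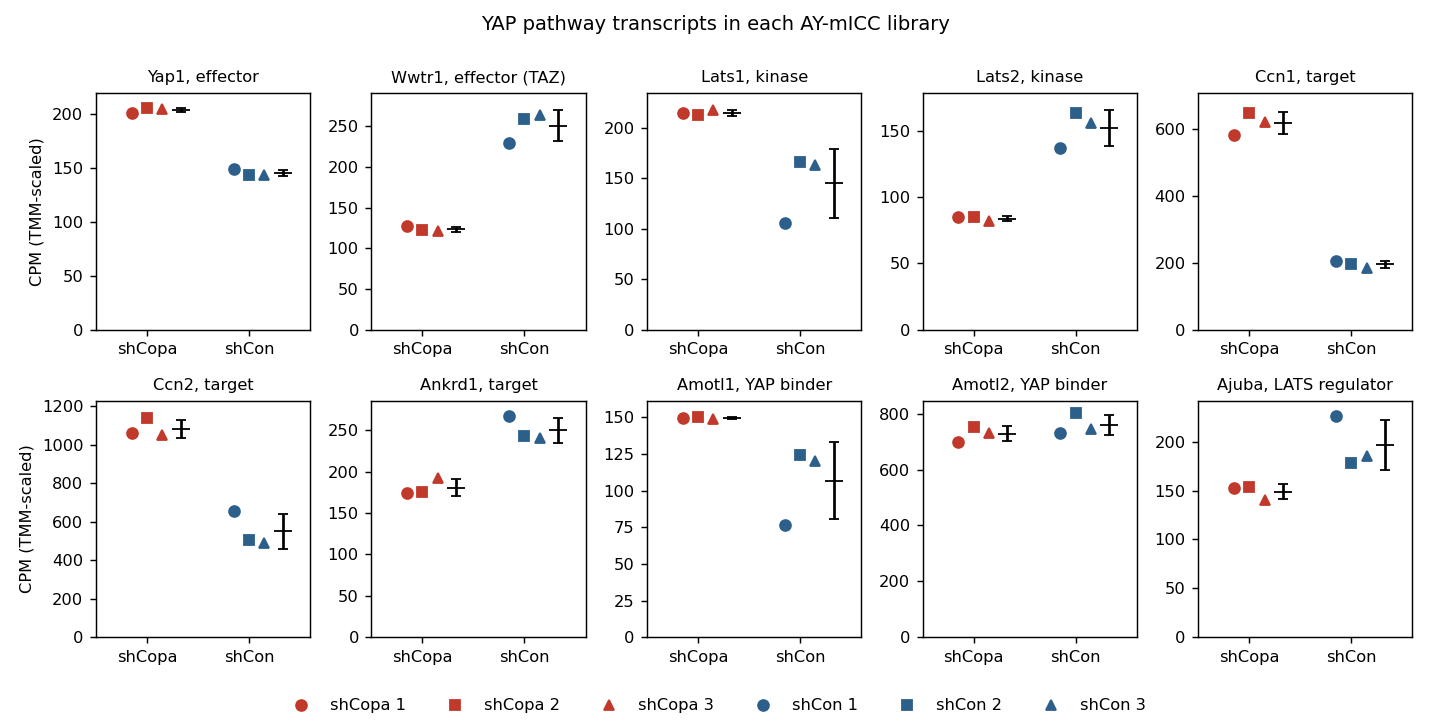
Each panel plots 1 member in CPM, counts scaled to library size by TMM (axis from 0), with 1 point per library, shCopa left of shCon, and the mean with its SD (n = 3 each) as a bar to the right of the points. Ccn1 stands at 582 to 648 CPM in shCopa and 185 to 206 CPM in shCon, Wwtr1 at 121 to 127 CPM and 229 to 264 CPM, and only Amotl2 has overlapping groups.

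The effectors moved in opposite directions. Yap1 (ENSMUSG00000053110), which encodes YAP, was at 202, 206 and 205 CPM in shCopa, against 149, 144 and 144 CPM in shCon. The groups did not overlap, and each was tight, with means of 204 ± 2.11 CPM in shCopa and 146 ± 3.04 CPM in shCon (SD, n = 3 each). Yap1 rose 1.40-fold, a log2 fold change of 0.49 ± 0.08 (SE, edgeR adjusted p = 0.00273). Wwtr1 (ENSMUSG00000027803), which encodes TAZ, was at 127, 122 and 121 CPM in shCopa, against 229, 259 and 264 CPM in shCon. All 3 shCopa libraries lay below all 3 shCon libraries, and Wwtr1 fell to 49.2% of control, a log2 fold change of -1.02 ± 0.09 (SE, edgeR adjusted p = 0.000239). Both calls were kept without any 1 library, at log2 fold changes of 0.47 to 0.50 for Yap1 and -1.09 to -0.996 for Wwtr1. With each library's trend on exon length removed, Yap1 rose less, at 0.38 (edgeR adjusted p = 0.0237). Wwtr1 was then at -1.06 (edgeR adjusted p = 2.39e-05).

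Levels of different genes can be roughly compared on a scale per kilobase of merged exon. On it, Yap1 reached 22.03 ± 0.23 CPM per kb in shCopa and 15.7 ± 0.33 in shCon. Wwtr1 was at 25.8 ± 0.65 CPM per kb in shCopa and 52.4 ± 3.92 in shCon (SD, n = 3 each). The level of Yap1 over that of Wwtr1 was 0.821, 0.866 and 0.876 in the shCopa libraries, against 0.336, 0.287 and 0.281 in the shCon libraries. On this scale Wwtr1 was thus above Yap1 in all 6 libraries, by less in shCopa. That order in shCopa depends on the merged lengths, 9257 bases for Yap1 and 4779 for Wwtr1. In CPM, Yap1 averaged 204 and Wwtr1 123 in shCopa, against 146 and 251 in shCon. Whether the line carries a YAP transgene, and whether its reads would be counted under Yap1, is not given in the labels. The Yap1 level and its ratio to Wwtr1 may therefore not be those of the native gene alone. The summed level of the 2 genes was 47.8 ± 0.46 CPM per kb in shCopa and 68.2 ± 3.6 in shCon, with no overlap between the libraries of the groups. These sums and ratios were chosen after the values of the genes were known and carry no test.

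The kinase genes also parted. Lats1 (ENSMUSG00000040021) was at 214, 212 and 218 CPM in shCopa, against 106, 166 and 163 CPM in shCon, so that shCon 1 lay far below the other controls. Its log2 fold change was 0.57 ± 0.17 (SE, edgeR adjusted p = 0.0353). Without shCon 1 it was 0.38 (edgeR adjusted p = 8.23e-06), and without any 1 of the shCopa libraries the call was lost, at adjusted p = 0.0972 to 0.108. Lats1 has 7297 bases of exon and lay 0.64 below the mean of shCon 2 and 3 in shCon 1 (log2, -0.636), in a library low in long genes. With each library's trend on exon length removed, its log2 fold change was 0.52 (edgeR adjusted p = 0.00692). Lats2 (ENSMUSG00000021959), a kinase gene that YAP itself is known to raise, was at 84.6, 84.7 and 81.8 CPM in shCopa, against 137, 164 and 156 CPM in shCon. It fell to 55.0% of control, a log2 fold change of -0.86 ± 0.10 (SE, edgeR adjusted p = 0.000562), and stayed past the threshold without any 1 library.

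Per kilobase of exon, Lats1 stood at 29.4 ± 0.37 CPM per kb in shCopa and 19.9 ± 4.65 in shCon, and Lats2 at 12.0 ± 0.24 and 21.8 ± 1.95 (SD, n = 3 each). The level of Lats1 over that of Lats2 was 2.42, 2.39 and 2.54 in the shCopa libraries, against 0.737, 0.967 and 1.00 in the shCon libraries. Lats1 was thus the more abundant kinase transcript in every shCopa library, whereas in shCon the levels were close or Lats2 was higher. Their sum was 41.4 ± 0.17 CPM per kb in shCopa and 41.7 ± 6.55 in shCon, and the shCopa values lay within the range of the shCon libraries.

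**Figure D2:**
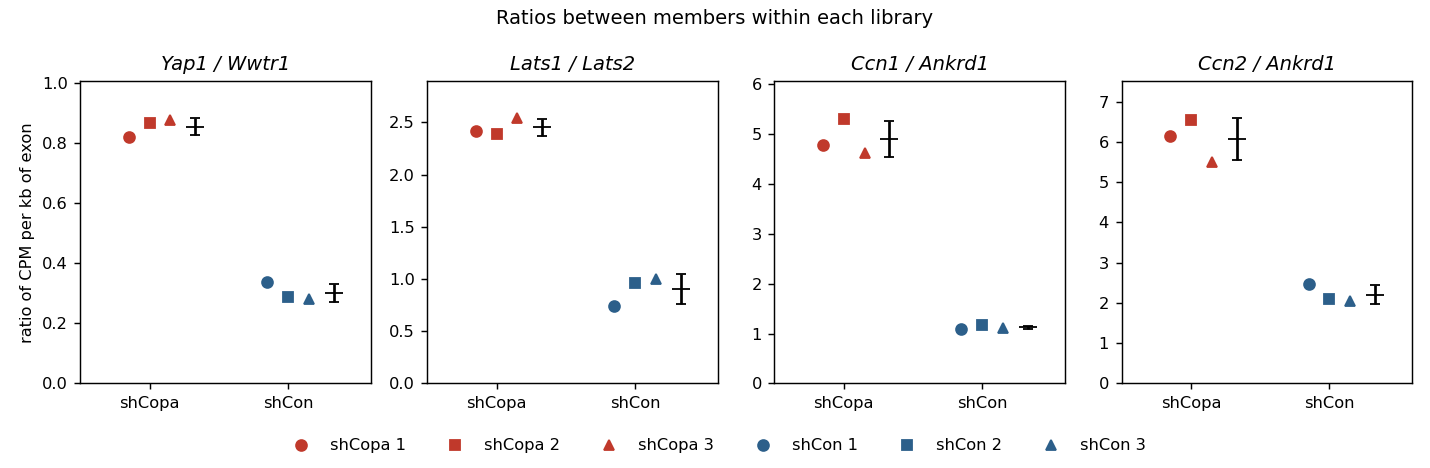
Each panel plots the ratio of 2 members' levels (CPM per kb of exon, axis from 0) with 1 point per library, shCopa left of shCon, and the mean with its SD (n = 3 each) to the right. In all 4 panels the shCopa libraries lie above every shCon library, as in Yap1 over Wwtr1 at 0.821 to 0.876 in shCopa and 0.281 to 0.336 in shCon.

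Of the target genes among the members, Ccn1 and Ccn2 rose and Ankrd1 fell. Ccn1 (ENSMUSG00000028195, older name Cyr61), whose product binds integrins, was at 582, 648 and 621 CPM in shCopa, against 206, 197 and 185 CPM in shCon. Every shCopa library was far above every shCon library, and Ccn1 rose 3.15-fold, a log2 fold change of 1.66 ± 0.09 (SE, edgeR adjusted p = 4.99e-05). By size of log2 fold change it was 929th of the 14807 genes tested, the largest change among the members. Ccn2 (ENSMUSG00000019997, older name Ctgf), which encodes connective tissue growth factor, was at 1063, 1136 and 1050 CPM in shCopa, against 655, 505 and 487 CPM in shCon. The groups did not overlap, with shCon 1 the highest control, and Ccn2 rose 1.97-fold, a log2 fold change of 0.98 ± 0.13 (SE, edgeR adjusted p = 0.00125). Without shCon 1 its log2 fold change was 1.12.

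Ankrd1 (ENSMUSG00000024803), which encodes an ankyrin repeat protein found in the nucleus and in muscle sarcomeres, fell. It was at 174, 175 and 192 CPM in shCopa, against 267, 243 and 240 CPM in shCon. The groups did not overlap, and Ankrd1 fell to 72.2% of control, a log2 fold change of -0.47 ± 0.09 (SE, edgeR adjusted p = 0.00631; at most 0.0440 without any 1 library). The level of Ccn1 over that of Ankrd1, per kilobase of exon, was 4.90 ± 0.36 in shCopa and 1.12 ± 0.04 in shCon (SD, n = 3 each). For Ccn2 over Ankrd1 it was 6.07 ± 0.53 in shCopa and 2.21 ± 0.23 in shCon.

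The angiomotin-like genes encode junction proteins that bind YAP and hold it outside the nucleus, and Amotl2 is also a target of YAP. Amotl1 (ENSMUSG00000013076) was at 149, 150 and 149 CPM in shCopa, against 76.6, 124 and 120 CPM in shCon. Its groups did not overlap, but shCon 1 lay far below the other controls, and Amotl1 did not pass (log2 fold change 0.48 ± 0.18, SE, edgeR adjusted p = 0.0691). Without shCon 1 its log2 fold change was smaller, 0.29, and past the threshold (edgeR adjusted p = 0.000211). With 10064 bases of exon it is the longest member, and with the trend on exon length removed its log2 fold change was 0.40 (edgeR adjusted p = 0.00954). Amotl2 (ENSMUSG00000032531) was at 700, 754 and 733 CPM in shCopa, against 732, 802 and 746 CPM in shCon, and the groups overlapped. Its log2 fold change was -0.06 with a 95% interval from -0.26 to 0.14 (edgeR adjusted p = 0.616).

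Ajuba (ENSMUSG00000022178), which encodes a LIM protein that binds LATS kinases and restrains them, was at 153, 154 and 140 CPM in shCopa, against 226, 178 and 186 CPM in shCon. The groups did not overlap, with shCon 1 the highest library. Ajuba fell to 75.8% of control, a log2 fold change of -0.40 ± 0.11 (SE, edgeR adjusted p = 0.0287). Without shCon 1 it was -0.29 (edgeR adjusted p = 0.000310), and without any 1 of the shCopa libraries the call was lost, at adjusted p = 0.0869 to 0.120.

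**Figure D3:**
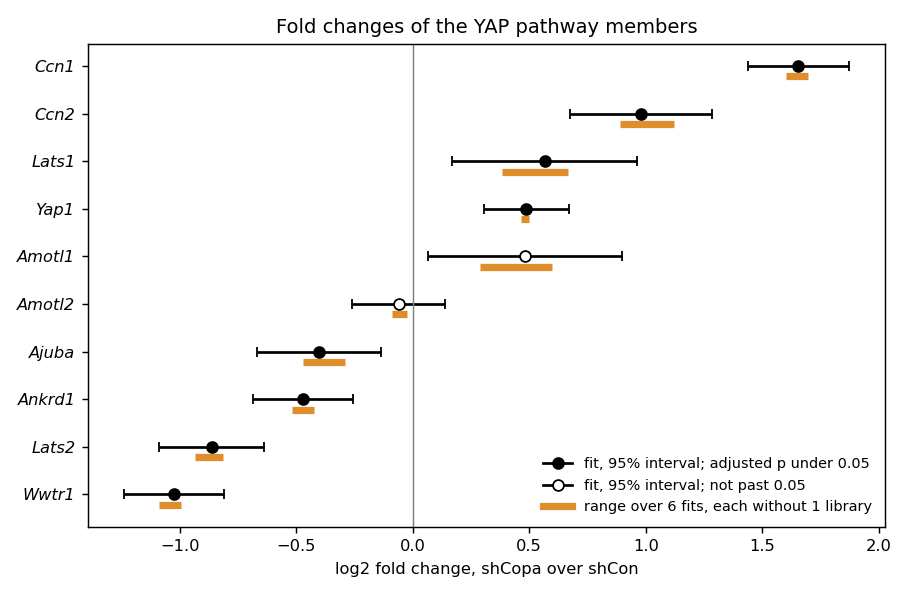
Members are ordered by log2 fold change of shCopa over shCon, with a 95% interval from the fit (black, filled where adjusted p is under 0.05) and the range over 6 fits that each left out 1 library (orange). Intervals run from 1.44 to 1.87 for Ccn1 and from -1.24 to -0.81 for Wwtr1; the orange range is widest for Amotl1, from 0.29 to 0.60, and does not cross 0 for any member.

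**Figure D4:**
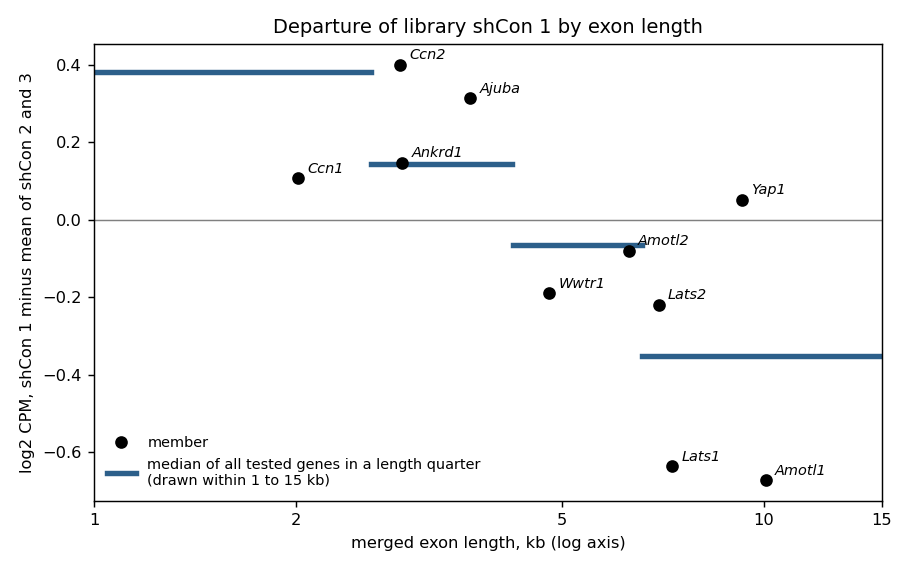
The departure of library shCon 1 from the mean of shCon 2 and 3 (log2 CPM) is plotted against merged exon length (kb, log axis) for each member, with the median of all tested genes in each of 4 length classes as a blue line. Lats1 (-0.636) and Amotl1 (-0.671) lie lowest and Ccn2 (0.400) and Ajuba (0.314) highest, while Yap1, at 9257 bases among the longest, lies at 0.0518.

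Ordered by level per kilobase of exon, the shCopa libraries gave Ccn2 (379 ± 16.3 CPM per kb), Ccn1 (306 ± 16.4), Amotl2 (116 ± 4.34), Ankrd1 (62.6 ± 3.55), Ajuba (40.9 ± 2.02), Lats1, Wwtr1, Yap1, Amotl1 (14.8 ± 0.07) and Lats2 (SD, n = 3 each). No neighbours in this order overlapped between libraries, but the order depends on the merged exon lengths. In CPM, shCopa means were 729 for Amotl2 and 617 for Ccn1, and 204 for Yap1 and 181 for Ankrd1. The shCon order was Ccn2 (192 ± 32.1 CPM per kb), Amotl2 (121 ± 5.85), Ccn1 (97.1 ± 5.21), Ankrd1 (86.6 ± 5.21), Ajuba (53.9 ± 7.08), Wwtr1, Lats2, Lats1, Yap1 and Amotl1 (10.6 ± 2.62). There the libraries of Ccn1 and Ankrd1, of Ajuba and Wwtr1, of Lats2 and Lats1, and of Lats1 and Yap1 overlapped. Lats2 was thus the lowest member in shCopa and Amotl1 the lowest in shCon.

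The proteins through which YAP and TAZ touch DNA are the TEAD factors, and VGLL proteins bind the same TEAD surface. Tead1 was the most abundant TEAD transcript, at 397, 393 and 381 CPM in shCopa, against 194, 324 and 324 CPM in shCon. It did not pass (log2 fold change 0.48 ± 0.19, SE, edgeR adjusted p = 0.0909), but without shCon 1 it was 0.27 (edgeR adjusted p = 0.000274). Tead4 rose, with 32.9, 33.8 and 37.5 CPM in shCopa, against 17.3, 20.1 and 20.9 CPM in shCon, a log2 fold change of 0.84 ± 0.11. Vgll3 rose as well, with 118, 112 and 111 CPM in shCopa, against 49.5, 53.1 and 63.6 CPM in shCon, a log2 fold change of 1.04 ± 0.11. Tead2 fell, to 60.5% of control (log2 fold change -0.72 ± 0.13), and Tead3 fell to 66.1% (-0.60 ± 0.14), a call lost without shCopa 1 (edgeR adjusted p = 0.0560). Vgll4, a repressor that competes with YAP for TEAD, fell to 77.0% of control (-0.38 ± 0.08), a call lost without shCopa 1 or shCopa 2 (adjusted p = 0.0598 and 0.0542). Vgll2 was at 0.616 CPM or less in every library, with a log2 fold change of -0.11 ± 0.47, and Vgll1 had too few counts to test. In this list 2 of the 7 tested members rose, 3 fell and 2 missed the threshold, at a median log2 fold change of -0.11. That is 71.4% changed, against 36.5% of all genes tested.

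Upstream of LATS, 2 of 23 tested kinase and scaffold genes rose, 5 fell and 16 missed the threshold, at a median log2 fold change of -0.05; the atypical cadherin gene Dchs1 had no counts. That is 30.4% changed, against 36.5% of all genes tested. Stk4, which encodes the Hippo kinase MST1, was at 172, 173 and 193 CPM in shCopa, against 81.4, 114 and 110 CPM in shCon, and rose 1.76-fold (log2 fold change 0.82 ± 0.14, SE, edgeR adjusted p = 0.00377). Sav1, the scaffold that joins MST kinases to LATS, was at 62.1, 64.1 and 65.6 CPM in shCopa, against 95.8, 95.8 and 92.9 CPM in shCon, and fell to 67.4% of control (-0.57 ± 0.08, edgeR adjusted p = 0.00150). Both calls were kept without any 1 library, with Stk4 at a log2 fold change of 0.68 without shCon 1. Taok3, a kinase gene upstream of MST, rose less (log2 fold change 0.41 ± 0.13). The other calls were falls: Amot, the founding angiomotin (-0.48 ± 0.14), Nf2, the tumour suppressor Merlin (-0.36 ± 0.11), Taok2, a kinase related to Taok3 (-0.36 ± 0.10), and Wwc1, the scaffold KIBRA (-0.31 ± 0.08). Each of these last 5 lost its call in several fits that left out 1 library: without any 1 shCopa library in all 5, without shCon 2 in all but Taok3, and without shCon 3 in Taok3, Amot, Nf2 and Taok2. Over those fits 1 to 5 genes of the list rose and 1 to 8 fell, with the high ends without shCon 1, where calls rose over all genes too.

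A further list held 24 published YAP and TAZ targets, all tested. Of these 7 rose, 5 fell and 12 did not pass, with a median log2 fold change of -0.14. The shares were 29.2% rising and 20.8% falling, against 18.2% and 18.4% of all genes tested. The rises included Gadd45a, a DNA damage response gene, at 202, 212 and 208 CPM in shCopa, against 109, 61.1 and 67.7 CPM in shCon (log2 fold change 1.39 ± 0.21, SE, edgeR adjusted p = 0.00216). Cav1, the caveolae coat gene, rose 2.26-fold, F3, which encodes tissue factor, 2.24-fold, and Ccdc80, a matrix protein gene, 1.94-fold. The largest fall was that of Slit2, a secreted guidance cue, at 7.48, 8.64 and 6.32 CPM in shCopa, against 34.6, 42.6 and 45.5 CPM in shCon. It fell to 18.3% of control (log2 fold change -2.45 ± 0.16, edgeR adjusted p = 8.83e-05). Fjx1, a secreted Four-jointed relative, was at 4.74, 4.80 and 4.05 CPM in shCopa, against 18.7, 10.5 and 10.4 CPM in shCon, and fell to 34.4% of control. Leaving out shCon 1 moved the log2 fold change of Fjx1 from -1.54 to -1.21 and that of Gadd45a from 1.39 to 1.68. Tgfb1, the growth factor TGF-beta 1, fell to 56.4%, Foxf2, a forkhead factor below 2 CPM, to 55.4%, and Nuak2, a kinase gene, to 78.6%. The calls of Foxf2 and Nuak2 were lost in most fits that left out 1 library: for Foxf2 all but that without shCon 3, and for Nuak2 those without any 1 shCopa library and without shCon 2. Without shCon 1, 12 genes of the list fell and 7 rose, where 4122 of all 15273 genes tested fell and 4317 rose.

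**Figure D5:**
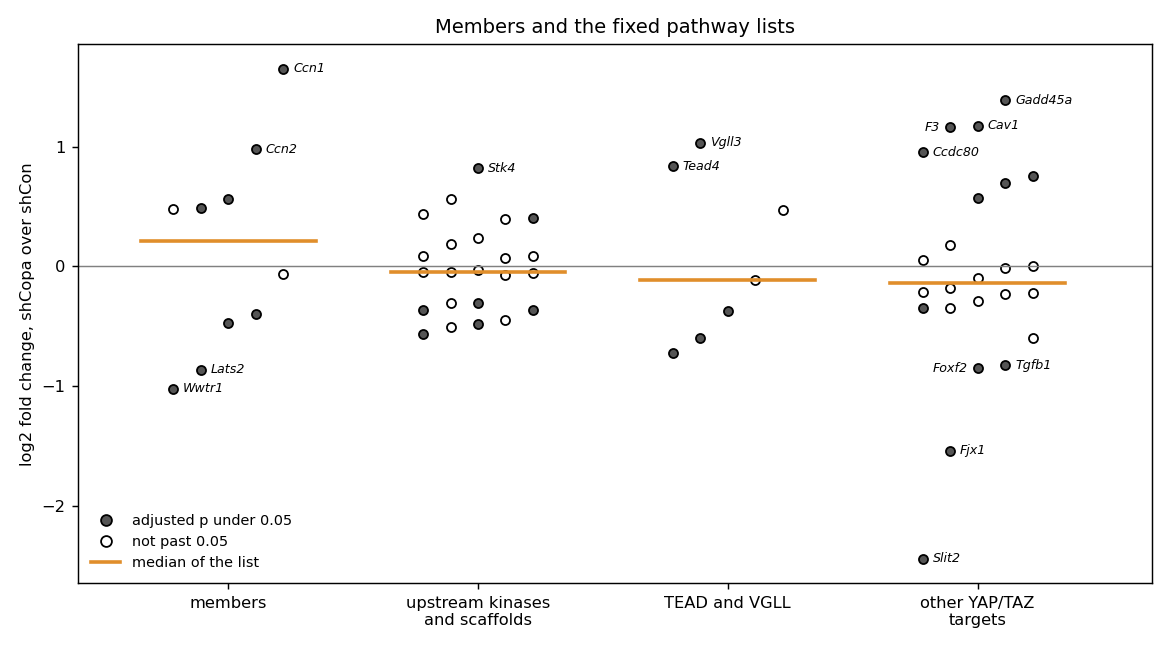
Log2 fold changes of shCopa over shCon are plotted for every tested gene of the members and of the 3 other lists, filled where adjusted p is under 0.05, with the list median as an orange line. Each list has called genes on both sides of 0, from Slit2 at -2.45 to Gadd45a at 1.39 among the other targets, and the medians lie between -0.14 and 0.21.

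The genes whose pattern over the 6 libraries was nearest to that of Yap1, by the root mean square difference of centred log2 CPM among 9573 genes of at least 10 CPM, were Pter, Oxsm and Ipo4, at 0.0244, 0.0246 and 0.0261. Ipo4, which encodes an importin, averaged 118 ± 1.48 CPM in shCopa and 82.2 ± 3.49 CPM in shCon (SD, n = 3 each). Nearest to Ccn2 were Rasl11b, Hmga1 and Polr3d, at differences of 0.0373, 0.0443 and 0.0491. Hmga1, which encodes a chromatin protein, averaged 79.6 ± 4.4 CPM in shCopa and 40.5 ± 6.96 CPM in shCon.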

How the data were processed

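RNA-seq of 3 shCopa and 3 shCon libraries of AY-mICC cells was used; groups and replicate numbers came from the sample titles. Per the labels' protocols, libraries were made from TRIzol RNA with an mRNA kit and sequenced as read pairs. The authors deposited estimated counts by Ensembl gene in 1 table, with 10.6% to 11.9% of a library's values not whole. The submitters' processing notes name build GRCm39 and the tools Trimmomatic, featureCounts, HTSeq, DESeq2 and HISAT2 2.0.5. Which tool gave these values, the annotation and the strand setting are details not given in sources used here. Reads of overlapping or antisense genes may therefore be mixed.

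Estimated counts were rounded. Symbols were found in a GENCODE M21 name table for 52081 of 55414 identifiers, with Cyr61 and Ctgf read as Ccn1 and Ccn2; of identifiers sharing a symbol, that with the higher mean was used. Tests used edgeR 4.0.16 in R 4.3.3 with TMM scaling, filterByExpr, a robust quasi-likelihood F test and Benjamini-Hochberg adjustment over all tested genes. Each SE was worked out as the fitted change over the root of F. CPM uses TMM-scaled totals, and CPM per kb divides by merged exon length in GENCODE M21. Coordinates of promoters are in GRCm38.p6, not the authors' build. The steps were tested on simulated counts, drawn with no trend on exon length and no library set apart. That test does not cover these features of the data. Alternatives were other scalings and filters, DESeq2 1.42.0, limma-voom (limma 3.58.1), the replicate number as a block, each library left out and offsets for exon length, an alternative chosen after seeing the data. Members and lists were chosen with earlier results of these data known. Genes named were all members, Copa, the 3 nearest in pattern to Yap1 and to Ccn2, all TEAD and VGLL genes, and in other lists the 6 changed genes of smallest adjusted p plus those moving against the majority. Protein sequences were not used here. A floor of 3 counts, for counting error only, is 0.122 to 0.153 CPM.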

Additional observations from a re-analysis of the deposited data

How the results depend on the processing

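All 10 members kept the direction of their log2 fold change under every alternative run, and Yap1, Wwtr1, Lats2, Ccn1, Ccn2 and Ankrd1 also stayed past the threshold throughout. Lats1 and Ajuba lost their calls with the replicate block (log2 fold changes 0.60 and -0.39, edgeR adjusted p = 0.0510 and 0.0644), and Amotl1 passed with DESeq2 (0.48, adjusted p = 0.0395) and with exon length offsets (0.40). Deviations from the group means correlated at -0.16, -0.06 and -0.11 for the same replicate number, and 0 of 6 libraries correlated best with their own number. With 3 libraries per group and shCon 1 apart from the other controls, these correlations cannot decide whether replicate numbers pair the libraries. With the replicate block 3903 genes passed, against 5411 without it. At an edgeR adjusted p under 0.01, without the block, 3177 passed. Of all genes tested, 2691 rose and 2720 fell in the main fit, and 1964 rose and 1939 fell with the replicate block. With exon length offsets 2907 rose and 3674 fell, and with library totals only 3013 rose and 2422 fell. The list counts below are to be read against these. With 1 library left out, 3533 to 8439 genes passed, 1778 to 4317 rising and 1755 to 4122 falling, with the low ends without shCopa 3 and the high ends without shCon 1; the members' log2 fold changes then ran from 0.38 to 0.67 for Lats1, 0.29 to 0.60 for Amotl1 and -0.47 to -0.29 for Ajuba. Of the upstream list, 1 gene rose and 1 fell with the replicate block, 4 rose with exon length offsets and 3 fell with library totals only; leaving out 1 library gave 1 to 5 rising and 1 to 8 falling. Of the other targets, 3 fell with the replicate block and 11 with exon length offsets, and 3 to 12 with 1 library left out; 1 to 3 of the TEAD and VGLL list then fell. With the replicate block the calls of Vgll4 (edgeR adjusted p = 0.0508), Wwc1, Taok2, Nf2, Amot, Taok3, Foxf2 and Nuak2 were lost as well, and 2 of the TEAD and VGLL list fell. The log2 fold change of Vgll2, near the limit of depth, turned to 0.00084 with limma-voom and ran from -0.45 to 0.19 with 1 library left out, above 0 without shCopa 2 (0.0098) and without shCon 3. Calls of Nf2, Amot and Nuak2 were also lost with library totals only, that of Nuak2 with upper-quartile scaling, and that of Foxf2 with DESeq2 and with no low-count filter. The causes were not tested.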
